A study of Homo sapiens with 12 samples.

Results

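Keratins are the intermediate filament proteins of epithelial cells, and 10 keratin genes of the simple and basal types were followed in a colorectal cancer line exposed to ammonium chloride and TGF-β. They were KRT5, KRT6A, KRT7, KRT8, KRT14, KRT15, KRT17, KRT18, KRT19 and KRT20, taken by gene name from the 25733 genes of the expression table. The group was selected on measured values, because KRT5 was abundant and fell with NH4Cl, read here as a fall against control cells. Values of the keratins in NH4Cl against control are therefore given as a description, without a test of that contrast, and nothing is supported with them. They also enter the later test of whether the NH4Cl difference depended on TGF-β, which left out KRT5.

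RNA was sequenced from HCT116, an established human colon cancer line, in 4 groups of 3 libraries each. Control cells had no treatment. Another group had vehicle for 23 h and then 200 pM TGF-β for 1 h. NH4Cl cells had 10 mM NH4Cl, a source of ammonia, for 24 h. Cells with both treatments had 10 mM NH4Cl alone for 23 h, and 200 pM TGF-β was then given for 1 h. These doses and times are from the study's methods, since the sample labels give none. Nothing states whether the 3 libraries of a group came from separate cultures, so p-values measure the spread between these libraries, which may be technical. Depth was 14807630 to 18191998 gene reads per library (median 15484798).

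Keratins form filaments as pairs of a type I and a type II protein. Cells of simple epithelia, such as the lining of the colon, are known for KRT8 (type II) with KRT18, KRT19 and KRT20 (type I), and KRT7 marks many ducts and glands but little of the normal colon. Basal cells of stratified epithelia such as the epidermis are known for KRT5 (type II) with KRT14 and KRT15 (type I), while KRT6A, KRT16 and KRT17 appear in hair follicles and in wounded or proliferating epidermis.

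Genes lie in a pair of clusters, with coordinates here on GRCh38. The type II genes KRT7 (chr12:52232520-52252186, plus strand), KRT6A (chr12:52487174-52493257, minus strand), KRT5 (chr12:52514575-52520687, minus strand) and KRT8 (chr12:52897187-52949954, minus strand) are on chromosome 12, together with the type I gene KRT18 (chr12:52948871-52952901, plus strand). The other type I genes are on chromosome 17, all on the minus strand: KRT20 (chr17:40875941-40885227), KRT15 (chr17:41513743-41522529), KRT19 (chr17:41523617-41528308), KRT14 (chr17:41582279-41586921) and KRT17 (chr17:41619441-41624842). Exons of KRT8 and KRT18 overlap on opposite strands over 525 bases, 7.63% of the exon bases of KRT8 and 16.3% of those of KRT18. No source says that strand was used in counting, so reads there cannot be told apart, and the same holds for the 282 exon bases that KRT7 shares with KRT7-AS, which had a mean of 0.261 FPKM. KRT6A and KRT6B, and KRT14, KRT16 and KRT17, are close paralogs, and KRT8 and KRT18 have many pseudogenes, so their reads may have been split between copies.

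Promoter sequence from RefSeq (GRCh38.p14) matched 3 of the 10 genes: KRT5, an abundant gene that differed with NH4Cl, KRT8, an abundant gene that differed little, and KRT20, a gene near the detection limit. The 100 bases before the start site are shown for these 3, 5′ to 3′ on the gene's own strand, at chr12:52520395-52520494 for KRT5, chr12:52926470-52926569 for KRT8 and chr17:40885243-40885342 for KRT20, each on the minus strand. Capitals mark ATAAAA, a run of letters chosen after the sequences had been read.
KRT5: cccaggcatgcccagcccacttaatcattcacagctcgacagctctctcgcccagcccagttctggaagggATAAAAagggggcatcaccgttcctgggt
KRT8: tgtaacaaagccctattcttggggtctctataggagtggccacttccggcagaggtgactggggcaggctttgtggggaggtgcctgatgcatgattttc
KRT20: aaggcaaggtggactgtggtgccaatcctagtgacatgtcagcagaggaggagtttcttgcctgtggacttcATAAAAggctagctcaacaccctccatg
ATAAAA began 29 bases before the start site of KRT5 and 28 bases before that of KRT20, and was not in the window shown for KRT8. That KRT8 window lies well inside the gene, which reaches to 52949954 on the minus strand, so other start sites may lie upstream. Which start sites were used in these cells was not tested. On either strand ATAAAA was in 5.95% of the 35116 promoters over the same 100 bases. Over the 250 bases before the start site, TATAAA was in 10.7% of all promoters, GGGCGG in 42.6% and TGANTCA in 6.57%, searched on both strands, and none of these was in the windows of KRT5, KRT8 or KRT20. Of the 250 bases, 56.0% were G or C in KRT5, 50.4% in KRT8 and 41.2% in KRT20.

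Which of the keratins were expressed was plain from their levels, given as deposited FPKM (fragments scaled by exon length and by the library's reads). Exon length counts all exon bases of a gene, so comparisons between genes depend on it. It was 6881 bases for KRT8, 3218 for KRT18, 2336 for KRT19 and 4292 for KRT5. Median reads per library were 91654 for KRT8, 43048 for KRT18, 20398 for KRT19 and 26926 for KRT5. KRT18 had the highest mean over the 12 libraries, 876 FPKM, and ranked 26th of all genes. KRT8 followed with 860.4 FPKM and rank 27, KRT19 with 556 FPKM and rank 50, and KRT5 with 389.9 FPKM and rank 74. After these 4 abundant keratins, levels dropped to 13.1 FPKM for KRT17, 9.67 for KRT6A, 4.04 for KRT7 and 1.16 for KRT15. The simple pair KRT8 and KRT18 was thus joined by KRT5, the basal type II keratin, but not by KRT14, with which KRT5 usually pairs in epidermis. KRT14 had 7 reads in the 12 libraries together, with 0 reads in 6 of them and at most 0.0603 FPKM, under the 0.0708 to 0.0910 FPKM that 3 reads are worth. KRT20, a keratin of mature intestinal cells, had 66 reads in all and 0.0583 to 0.416 FPKM, where 3 reads are worth 0.0874 to 0.112 FPKM. That floor covers counting error only.

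**Figure D1:**
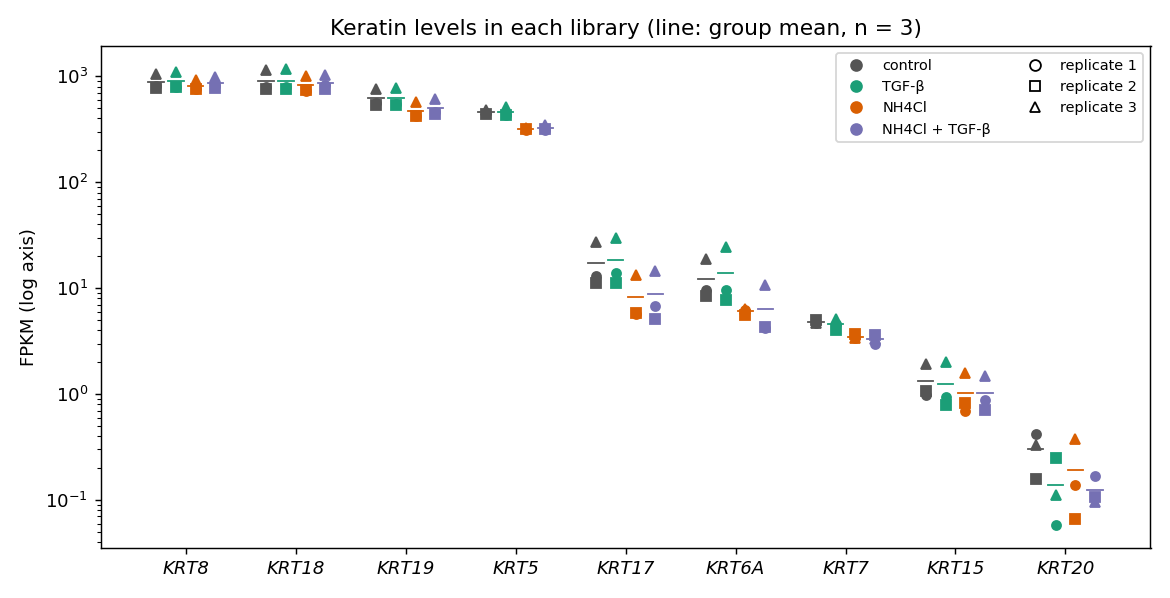
FPKM of 9 keratin genes in each of the 12 libraries on a log axis, with groups as colours, replicate numbers as shapes and the mean of each group of 3 as a line. KRT8, KRT18, KRT19 and KRT5 lie at or above 310.2 FPKM in all 12 libraries, while KRT17 and the genes to its right lie at or below 29.8 FPKM; KRT14, at 0 in 6 libraries, is not drawn.

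A total of 8 of the 10 keratins had a mean of at least 1 FPKM and were tested, and KRT14 and KRT20 were not. KRT15 passed narrowly, and partly through replicate 3: its values in control cells were 0.986, 1.08 and 1.91 FPKM, and in the other groups the replicates 1 and 2 were all under 1. Among the 37 protein-coding keratin genes of the table, KRT5, KRT8, KRT18 and KRT19 made up 94.1% to 95.1% of the summed keratin FPKM of a library. All keratins together were 0.873% to 1.26% of a library's FPKM. In FPKM, the summed type II level of the 10 genes was 0.789 to 0.941 times the summed type I level, with type I the higher in every library. This near balance rests on the exon lengths used, since KRT8 had more reads than KRT18 in every library. In the control libraries, KRT8 made up 29.1% ± 0.0577 of keratin FPKM, KRT18 29.4% ± 1.56, KRT19 20.5% ± 0.436 and KRT5 15.3% ± 1.82 (SD, n = 3).

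Order of the levels in FPKM was the same at the top in each group, with differing certainty between neighbours. KRT8 and KRT18 overlapped in every group, at 878 ± 153 and 895 ± 211 FPKM in control cells (SD, n = 3). KRT19, at 621 ± 124 FPKM in control cells, lay below every control value of KRT8, and KRT5, at 456 ± 21.7 FPKM, below every control value of KRT19. KRT17 and KRT6A overlapped, at 17.1 ± 8.68 and 12.2 ± 5.65 FPKM in control cells. Their SD was wide, with replicate 3 the highest of the control libraries for both.

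**Figure D2:**
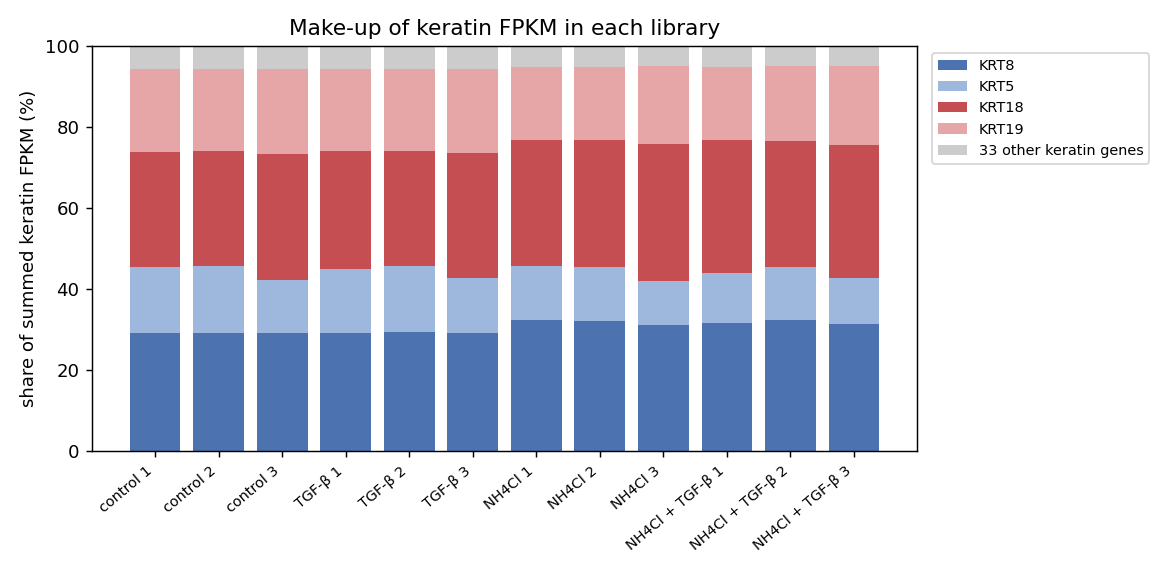
Share of summed keratin FPKM, in percent, held by KRT8, KRT5 (type II, blue), KRT18, KRT19 (type I, red) and the other 33 keratin genes (grey) in each library. The KRT5 band spans 13.2% to 16.5% in the libraries without NH4Cl and 10.9% to 13.4% in those with it, and it is thinnest in replicate 3 of each group.

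KRT5 was the member by which the group was chosen, and its values against control are descriptive. The control libraries had 450.2, 439 and 481 FPKM, and the NH4Cl libraries 310.2, 315 and 324 FPKM. All 3 NH4Cl libraries lay below all 3 control libraries, with differences of -31.1%, -28.1% and -32.6% within replicate numbers. The other tested members in the same contrast, on the log2(FPKM + 1) scale, differed by -0.97 for KRT17, -0.82 for KRT6A, -0.39 for KRT19, -0.37 for KRT7, -0.20 for KRT15, -0.11 for KRT8 and -0.11 for KRT18, against -0.53 for KRT5. Each was lower in 3 of 3 replicate numbers. Without control replicate 3 the values were -0.60 for KRT17, -0.50 for KRT6A, -0.24 for KRT19 and -0.39 for KRT7. KRT15 was then at -0.03, KRT8 at 0.03, KRT18 at 0.08 and KRT5 at -0.49. Without NH4Cl replicate 3 the values were -1.34 for KRT17, -0.86 for KRT6A, -0.54 for KRT19 and -0.35 for KRT7. KRT15 was then at -0.39, KRT8 at -0.20, KRT18 at -0.26 and KRT5 at -0.54. Cells with both treatments, set against the same control libraries, had log2 differences of -0.48 for KRT5, -0.91 for KRT17, -0.87 for KRT6A, -0.45 for KRT7, -0.29 for KRT19 and -0.19 for KRT15, each lower in 3 of 3 replicate numbers, and of -0.03 for KRT8 and -0.03 for KRT18, each lower in 2 of 3. Without control replicate 3 these became -0.44 for KRT5, -0.54 for KRT17, -0.54 for KRT6A and -0.46 for KRT7. KRT19 was then at -0.13, KRT15 at -0.02, KRT8 at 0.11 and KRT18 at 0.16. Without replicate 3 of both treatments they became -0.53 for KRT5, -1.29 for KRT17, -1.26 for KRT6A and -0.45 for KRT7. KRT19 was then at -0.44, KRT15 at -0.35, KRT8 at -0.14 and KRT18 at -0.15.

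Whether NH4Cl lowers keratins in cells that also receive TGF-β was asked between the 2 groups with TGF-β. The stated reason for choosing KRT5 does not say that these groups were left out. All 12 libraries also enter the estimate of the spread, so the p-values of KRT5 here are not independent support. KRT5 was lower, with a fall of about the same size in each replicate number. It had 429.6, 434 and 517 FPKM with TGF-β and 314, 315 and 351 FPKM with NH4Cl and TGF-β. The groups did not overlap, and the differences within replicate numbers were -27.0%, -27.3% and -32.1%. KRT5 fell by 0.49 on the log2(FPKM + 1) scale (SE 0.0813, adjusted p = 0.0307 with limma, lower in 3 of 3). It was the sole keratin of the 8 past an adjusted p of 0.05 in the model without replicate numbers, in which 0.251% of the 12341 genes tested were lower; 2 of the 8 had an unadjusted p under 0.05. Fitted on the 6 libraries of these 2 groups alone, KRT5 had an adjusted p of 0.268 and no gene was called. With all 4 groups in the model the call was lost without TGF-β replicate 1 (adjusted p = 0.0831), TGF-β replicate 2 (0.0943), replicate 1 of both treatments (0.11) or replicate 2 of both treatments (0.114). With the replicate number as a block, used because libraries of the same number deviated together (though replicates 1 and 2 did so about as much with each other, and mainly replicate 3 stood apart), adjusted p was 0.000168 (limma, SE 0.0420) and stayed between 0.000459 and 0.00156 with any 1 of the 6 libraries left out, a check with the block that was added after seeing the data. In bulk RNA, fewer cells that express a gene and less RNA per cell cannot be told apart.

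With the block, 5 of the 8 keratins were lower and none higher in this comparison, where 8.48% of all genes tested were lower. These were KRT5, KRT6A and KRT7 of type II and KRT17 and KRT19 of type I. The median log2 difference of the 8 was -0.33, beside -0.00 over all genes tested. Since the 10 genes were chosen with earlier results known, the count describes them and does not set keratins apart from other genes.

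KRT6A and KRT17, the keratins of follicle and wounded epidermis, had the largest differences. KRT17 had 13.8, 11.3 and 29.8 FPKM with TGF-β and 6.81, 5.12 and 14.4 FPKM with both treatments. The groups overlapped, since replicate 3 was high in each, but within replicate numbers KRT17 was lower by close to the same proportion, -50.7%, -54.6% and -51.5%. Its log2 difference of -0.98 had an adjusted p of 0.424 without the block (limma, SE 0.479) and 3.61e-05 with it (SE 0.0628). KRT6A had 9.55, 7.69 and 24.7 FPKM with TGF-β and 4.20, 4.27 and 10.7 FPKM with both. It again overlapped between groups and was lower in 3 of 3 replicate numbers, by -56.0%, -44.5% and -56.6%. Its log2 difference of -0.96 had an adjusted p of 0.380 without the block (limma, SE 0.436) and 0.0148 with it (SE 0.218). The blocked call for KRT6A was lost without TGF-β replicate 3 (adjusted p = 0.0559) or replicate 1 of both treatments (0.0665), while that for KRT17 stayed at or below 0.000544 with each of the 6 libraries left out. With single libraries left out, the size without the block ran from -1.35 to -0.48 for KRT6A and from -1.36 to -0.58 for KRT17, smallest in both without TGF-β replicate 3, and with the block from -1.12 to -0.73 and from -1.02 to -0.92. KRT6A and KRT17 were counted from 191 to 1050 and from 245 to 1355 reads per library, against 20097 to 34278 for KRT5.

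**Figure D3:**
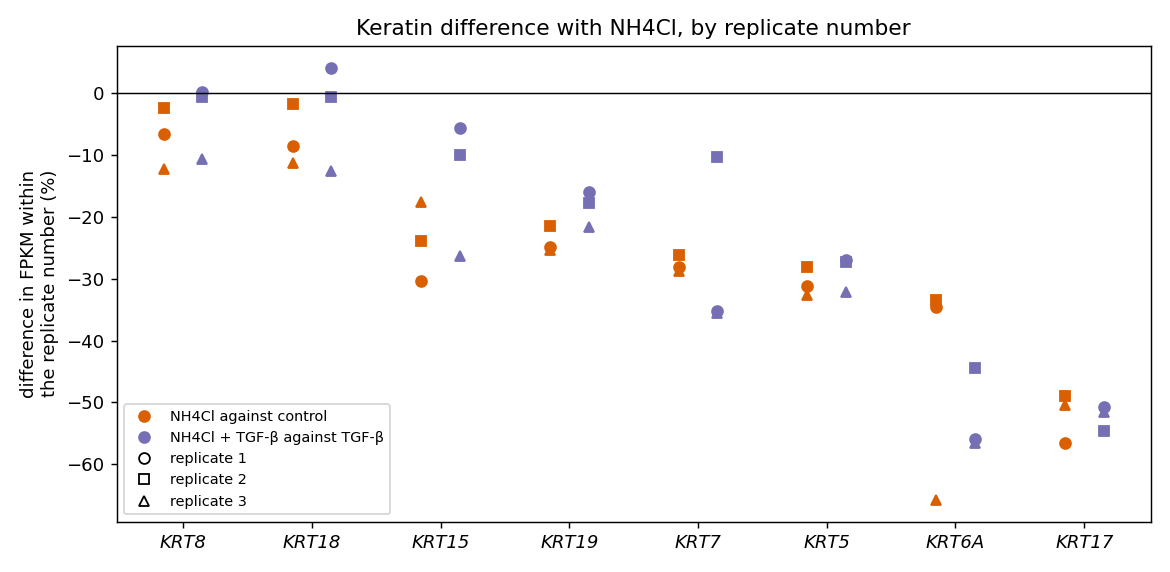
Difference in FPKM within each replicate number, in percent, for 8 keratins: NH4Cl against control (orange, the contrast used to choose the genes) and both treatments against TGF-β alone (purple), with replicate numbers as shapes. KRT17 lies between -49.0% and -56.6% in all 6 pairs, KRT5 between -27.0% and -32.6%, and KRT8 and KRT18 between -12.6% and 4.19%.

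KRT7 and KRT19, keratins of simple epithelia, also fell with the block. KRT19 had 549, 541 and 783 FPKM with TGF-β and 461, 445 and 614 FPKM with both treatments. Here too replicate 3 made the groups overlap, and the differences within replicate numbers were -15.9%, -17.7% and -21.6%. The log2 difference of -0.29 had an adjusted p of 0.603 without the block (limma, SE 0.199) and 0.000518 with it (SE 0.0319); with single libraries left out it ran from -0.44 to -0.12 without the block and from -0.31 to -0.27 with it. KRT7, at a far lower level, had 4.55, 4.01 and 5.14 FPKM with TGF-β and 2.95, 3.60 and 3.31 FPKM with both. Its groups did not overlap, yet replicate 2 differed by -10.3% where replicates 1 and 3 differed by -35.2% and -35.6%. A log2 difference of -0.38 gave an adjusted p of 0.0770 without the block (limma, SE 0.0847) and 0.0112 with it (SE 0.0797), and the blocked call was lost without TGF-β replicate 1 (0.0511) or replicate 1 of both treatments (0.0517).

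KRT8 and KRT18, the simple pair and the most abundant keratins, did not pass the threshold under either model. KRT8 had 800.1, 785 and 1102 FPKM with TGF-β and 802, 781 and 985 FPKM with both treatments. KRT18 had 798, 756 and 1179.7 FPKM with TGF-β and 832, 752 and 1031 FPKM with both. Replicates 1 and 2 were nearly level between the groups, and in replicate 3 KRT8 differed by -10.6% and KRT18 by -12.6%. The blocked log2 difference of KRT8 was -0.06 (95% interval -0.15 to 0.04, adjusted p = 0.398, limma, lower in 2 of 3), and that of KRT18 was -0.05 (-0.16 to 0.07, adjusted p = 0.554, lower in 2 of 3). Intervals without the block ran from -0.42 to 0.31 for KRT8, from -0.53 to 0.43 for KRT18 and from -0.67 to 0.41 for KRT15. KRT15, a basal type I keratin, had a blocked log2 difference of -0.13 (-0.31 to 0.06, adjusted p = 0.317, limma) and was lower in 3 of 3 replicate numbers. For KRT18 and KRT15 the intervals without the block thus held the fall of KRT5, and for KRT8 the interval reached close to it. With the block, the intervals of KRT8 and KRT18 were narrower and did not. At the 1.16 FPKM of KRT15 the log2(FPKM + 1) scale understates a change, so its blocked interval cannot be set against the fall of KRT5.

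**Figure D4:**
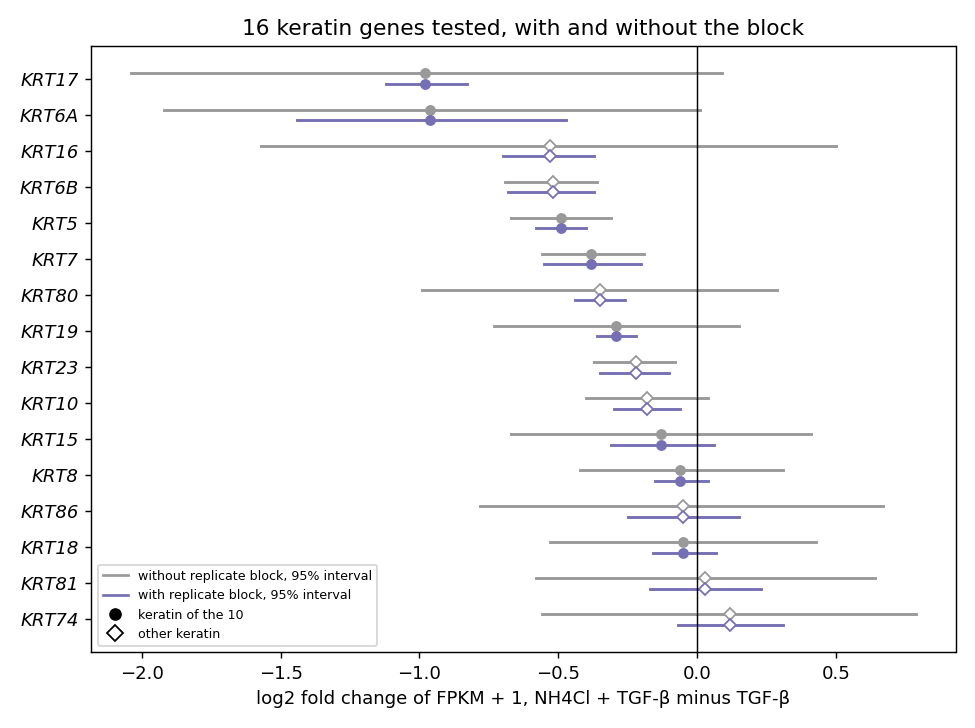
Log2 fold change of FPKM + 1, both treatments minus TGF-β, for the 16 keratin genes tested, with 95% intervals from limma without the block (grey) and with the replicate number as a block (purple). KRT5 and KRT6B have narrow intervals below 0 in both models, whereas KRT17 and KRT19 have wide grey intervals that cross 0 and narrow purple ones that do not.

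Within each type, the make-up of the keratin RNA also differed between these groups. KRT5 divided by KRT8, both in FPKM, was 0.537, 0.552 and 0.469 with TGF-β and 0.391, 0.404 and 0.356 with both treatments. KRT19 divided by KRT18 was 0.687, 0.716 and 0.664 with TGF-β and 0.555, 0.592 and 0.595 with both. Neither ratio overlapped between the groups. KRT8 divided by KRT18 overlapped, at 1.00, 1.04 and 0.934 with TGF-β and 0.965, 1.04 and 0.956 with both. Summed type II over type I overlapped too, at 0.914, 0.941 and 0.827 against 0.863, 0.918 and 0.813. These ratios were not tested.

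TGF-β for 1 h was compared with control, and after NH4Cl with NH4Cl alone, to see whether the keratins respond to the cytokine itself. None of the 8 keratins passed the threshold in either comparison, with or without the block. For KRT5 this is a description, since each comparison holds a group by which it was noticed. In TGF-β against control their log2 differences ran from -0.07 to 0.09 (the largest in size reached 0.44 without control replicate 3 and 0.39 without TGF-β replicate 2 or 3), and 0 of the 8 had an unadjusted p under 0.05 under either model. KRT5, whose control values were used to choose it, had 450.2, 439 and 481 FPKM in control cells and 429.6, 434 and 517 with TGF-β. Across all genes limma called 0.0% of 12341 without the block, where 103 had an unadjusted p under 0.05, and 0.0081% with it, where 422 did. The 1 gene called was ID1, a known early target of the TGF-β and BMP pathways, named after its value was seen: it rose from 31.9 to 49.5 FPKM (log2 difference 0.65, SE 0.0657, adjusted p = 0.0248 with the block).

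In both treatments against NH4Cl, the log2 differences of the keratins ran from -0.07 to 0.10. These means hid uneven replicates of KRT6A, which differed by -32.9%, -23.8% and 67.1%, and the largest difference in size became 0.40 in replicates 1 and 2 with the block, 0.43 without NH4Cl replicate 3 and 0.44 without replicate 3 of both treatments. Limma called 0.0% of the genes tested without the block, where 165 genes and 0 of the 8 keratins had an unadjusted p under 0.05, and 0.0081% with it, again ID1 (25.7 to 39.4 FPKM, log2 difference 0.62, SE 0.0657, adjusted p = 0.0342). With the block 879 genes and 1 of the 8 keratins had an unadjusted p under 0.05. That keratin was KRT19, with 422, 422 and 570.1 FPKM with NH4Cl and 461, 445 and 614 FPKM with both, a log2 difference of 0.10 (higher in 3 of 3) whose adjusted p with limma was 0.660. Whether the NH4Cl difference depended on TGF-β was tested for the 7 tested keratins other than KRT5, and none passed; the smallest blocked p was that of KRT19, with an interaction of 0.10 (SE 0.0452, adjusted p = 0.992 with limma). No gene of the table passed that test under either model, where 115 genes had an unadjusted p under 0.05 without the block and 537 with it.

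Outside the 10 genes, 27 further protein-coding keratin genes were in the table and 8 of them were tested; the other 19 had means of at most 0.483 FPKM. KRT23, a type I keratin, was the most abundant of the 8 at 65.2 FPKM, followed by KRT80 at 25.6, KRT10 at 14.6 and KRT6B at 8.37 FPKM. KRT74, KRT86, KRT81 and KRT16 had 1.81 to 3.81 FPKM. KRT6B, the near copy of KRT6A, had 10.5, 10.7 and 9.71 FPKM with TGF-β and 6.30, 7.11 and 7.23 FPKM with both treatments. Unlike KRT6A, it was not high in replicate 3. Its control libraries had 9.52, 9.26 and 8.16 FPKM, below every TGF-β library (log2 difference 0.18, higher in 3 of 3, not called). In NH4Cl against control its log2 difference was -0.26. In both treatments against TGF-β, KRT6B fell by 0.52 on the log2 scale (SE 0.0756, lower in 3 of 3). Its adjusted p was 0.0176 with limma without the block. KRT6B was the 1 of the 8 called in that model, where 0.251% of all genes tested were lower. That call was lost without replicate 1 or 2 of either group (adjusted p = 0.0688 to 0.0952), while with the block it stayed at or below 0.00939 with each of the 6 libraries left out. With the block 5 of the 8 were lower, beside 8.48% of all genes tested: KRT6B, KRT16, KRT80, KRT23 and KRT10. KRT16, which pairs with KRT6 proteins, had 1.67, 1.17 and 4.53 FPKM with TGF-β and 0.858, 0.555 and 2.67 FPKM with both (blocked log2 difference -0.53, SE 0.0753, adjusted p = 0.00169, lower in 3 of 3). The blocked adjusted p was 0.000732 for KRT80, 0.0231 for KRT23 and 0.0429 for KRT10, with log2 differences of -0.35, -0.22 and -0.18; KRT10 was lower in 2 of 3 replicate numbers, with 0.258% in replicate 1. Calls of KRT23 and KRT10 were lost with any 1 library left out other than replicate 1 of either group, reaching 0.0854 and 0.163, and those of KRT16 and KRT80 held with each. KRT74, KRT86 and KRT81, genes known from hair, had log2 differences of 0.12, -0.05 and 0.03. Pseudogenes added little: the highest of KRT8, KRT8P3, had 3.85 FPKM and the highest of KRT18, KRT18P34, 0.196 FPKM, and all 9 KRT8 pseudogenes summed to 0.921% of the KRT8 level.

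Genes whose pattern was most like KRT5 were found by Pearson correlation of log2(FPKM + 1), centred within each replicate number, over the 12 libraries and 4613 other genes with a mean of at least 10 FPKM. They were LFNG (r = 0.992), a glycosyltransferase that acts on Notch, HNRNPA0 (0.991), an RNA-binding protein, BCL2L1 (0.990), an inhibitor of apoptosis, KRT17 (0.987) and ACTB (0.986), the cytoskeletal actin. KRT19 ranked 8th (0.985), while KRT8 ranked 755th (0.749) and KRT18 1058th (0.633). LFNG averaged 69.1 FPKM without NH4Cl and 46.0 with it, and KRT17 17.7 and 8.54. The order depended on the centring: without it r was 0.973 for LFNG, 0.385 for HNRNPA0, 0.941 for BCL2L1, 0.828 for KRT17, 0.823 for ACTB, 0.796 for KRT19, 0.478 for KRT8 and 0.414 for KRT18. Since the libraries share treatments and the correlation holds the contrast by which KRT5 was chosen, it is a description.

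Markers of cell types were set beside the keratins, though bulk RNA does not show which cells carry a transcript. Of 18 colon epithelium genes, 11 were tested, with EPCAM the most abundant at 254 FPKM, VIL1 at 90.3 and TFF3 at 85.2 FPKM. Their summed level was 462 to 574 FPKM in control libraries, 468 to 558 with TGF-β, 496 to 614 with NH4Cl and 515 to 622 with both. FABP1 and GUCA2A, genes of mature intestinal cells, had 0 in 6 and 7 libraries. Other colon genes were also under the filter: CA2 at 0.728, MUC2 at 0.412, GPA33 at 0.214, SLC26A3 at 0.182 and CEACAM5 at 0.0956 FPKM. Of 13 basal and squamous genes, 11 were in the table and 6 were tested. The defining factor TP63 had a mean of 0.0356 FPKM, so KRT5 was high where TP63 was near 0. TRIM29 was the most abundant at 37.0 FPKM, then NGFR at 19.8 and SERPINB5 at 10.3 FPKM. Summed, the basal list had 90.9 to 93.3 FPKM in control libraries and 92.0 to 103 with TGF-β, but 70.8 to 77.7 with NH4Cl and 69.6 to 80.0 with both. The sum thus moved with KRT5, and its part in the result was not tested. Much of its difference between TGF-β and both treatments lay in NGFR, with means of 26.5 and 13.9 FPKM. TRIM29 had 39.4 and 35.2 FPKM in these groups, and SERPINB5 11.1 and 9.86 FPKM. Of 13 immune, endothelial and stromal genes, 11 were in the table and 3 were tested. Their sum was 10.7 to 16.0 FPKM in control libraries, 11.1 to 14.9 with TGF-β, 14.0 to 17.6 with NH4Cl and 13.5 to 19.0 with both, led by LUM at 7.79 FPKM, while PECAM1 had 0.0348 FPKM and COL1A2 and COL3A1 were at 0 in 4 and 6 libraries.

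In both treatments against TGF-β, 1 of the 6 basal and squamous genes tested was lower without the block and 3 with it, and none was higher. Of all genes tested 0.251% were lower and 0.778% higher without the block, and 8.48% lower and 10.3% higher with it, so blocked calls in this and the following lists are expected for some genes of any list. The median log2 difference of the list was -0.21. NGFR, a receptor of basal cells, had 26.5 ± 2.64 FPKM with TGF-β and 13.9 ± 1.93 with both (SD, n = 3; log2 difference -0.89, adjusted p = 0.0346 with limma without the block, lower in 3 of 3). Without the block the NGFR call was lost with any 1 of the 6 libraries left out other than TGF-β replicate 3 (adjusted p = 0.0825 to 0.148), and with it NGFR stayed at or below 0.000264. DSG3 and TRIM29 were lower with the block, with log2 differences of -0.45 and -0.16. SERPINB5 was not called (-0.17, blocked adjusted p = 0.0979). In the colon epithelium list, 0 of 11 were called without the block, and with it 2 were lower and 2 higher. EPCAM (0.19) and TFF3 (0.42) were higher with the block, ASCL2 (-0.41) and CDH1 (-0.19) lower, the last named after its value was seen. VIL1 was not called (0.13). In the immune, endothelial and stromal list 0 of 3 were called without the block and VWF (0.52) with it, at 2.29 ± 1.48 and 3.77 ± 2.32 FPKM; LUM and COL1A1 were not called.

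Desmosomes and hemidesmosomes, the junctions that anchor keratin filaments, had 10 and 8 genes tested. None was called without the block, and with it 3 desmosome genes were lower and none higher. PERP, a desmosomal membrane protein, had 528 ± 129 FPKM with TGF-β and 427 ± 94.8 with both (SD, n = 3; blocked log2 difference -0.30, adjusted p = 0.00248 with limma, lower in 3 of 3). DSG3, a desmosomal cadherin, had -0.45 (blocked adjusted p = 0.00138). The plaque proteins JUP and DSP, at 103 and 61.8 FPKM, were not called, with log2 differences of -0.06 each. Of the hemidesmosome genes, ITGB4 (-0.18), LAMB3 (0.08) and PLEC (-0.00) were not called under either model.

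Of 3 cornified envelope genes tested, 1 was lower with the block: PPL, which links envelope and filaments (18.0 ± 4.74 FPKM with TGF-β and 14.7 ± 3.06 with both, log2 difference -0.26, adjusted p = 0.0307). EVPL (-0.03) and CNFN (-0.05) were not called. Among 7 other intermediate filament genes tested, LMNB2 was lower with the block (-0.26, adjusted p = 0.00565), whereas the lamins LMNA (0.03) and LMNB1 (0.01) were not called. DES, at 0.867 ± 0.173 FPKM with TGF-β and 1.6 ± 0.234 with both, averaged 1.25 FPKM and met the filter of 1 FPKM only through the libraries with NH4Cl, so its blocked call is not used. Among 13 epithelial transcription factors tested, 1 was lower under either model, SOX2, at 12.3 ± 0.659 FPKM with TGF-β and 8.92 ± 1.31 with both (log2 difference -0.43, adjusted p = 0.0474 with limma without the block, lower in 3 of 3). Its call without the block was lost with any 1 of the 6 libraries left out other than replicate 3 of both treatments (adjusted p = 0.0527 to 0.205), and with the block it stayed at or below 0.0272. With the block, under which 10.3% of all genes tested were higher, 2 were higher, CEBPB (0.28) and ELF3 (0.15), the last named after its value was seen. KLF5 (-0.13), the most abundant at 154 FPKM, and HNF4A (0.01) were not called.

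Replicate 3 stood apart from replicates 1 and 2 in all 4 groups, and the keratins differed in how far. A chi-square value per gene, about 1 under pure counting error, was 1.76 to 5.02 for replicate 1 set against replicate 2 and 25.4 to 36.33 for pairs that held replicate 3. KRT17 in replicate 3 was 2.23 to 2.42 times the mean of replicates 1 and 2 across the groups. KRT15 was 1.85 to 2.34 times that mean, and KRT18, KRT19 and KRT8 1.30 to 1.52, 1.35 to 1.44 and 1.23 to 1.39 times. KRT5 was nearly level at 1.04 to 1.20, and so was KRT7 at 0.946 to 1.20. KRT6A was the uneven one: replicate 3 was 2.08, 2.86 and 2.53 times the mean of the others in control, TGF-β and both treatments, but 1.08 times with NH4Cl. Among other keratins KRT16 reached 2.82 to 3.88 times and KRT10 0.823 to 0.927 times. Summed FPKM was also higher in replicate 3. After scaling all libraries to 1 common sum, which put the median gene of replicate 3 lower by a log2 difference of -0.158 to -0.135, KRT17 was still 1.97 to 2.18 times the others and KRT5 0.911 to 1.07 times. Mitochondrial genes took 4.50% to 5.12% of reads in replicate 3 and 2.46% to 3.18% in the others, and the part of this in the keratin values was not tested. In replicates 1 and 2 alone, with the block, KRT5 (adjusted p = 0.00209), KRT6A (0.00245), KRT17 (0.00305) and KRT19 (0.0110) passed in both treatments against TGF-β, and KRT7 did not (0.0730).

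**Figure D5:**
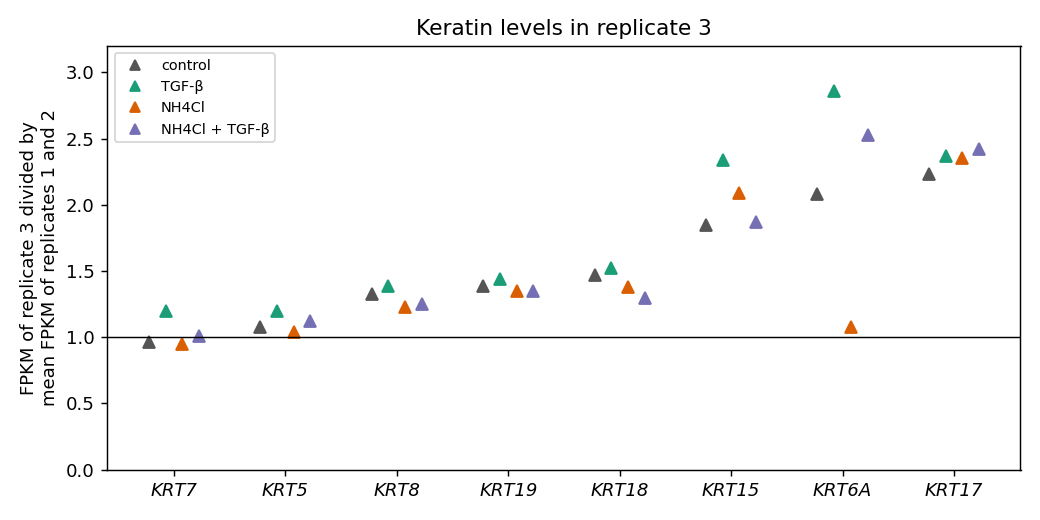
FPKM of replicate 3 divided by the mean FPKM of replicates 1 and 2 of the same group, for 8 keratins, with groups as colours and a line at 1. KRT7 and KRT5 lie at 0.946 to 1.20, KRT17 at 2.23 to 2.42, and KRT6A spreads from 1.08 with NH4Cl to 2.86 with TGF-β.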

How the data were processed

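Total RNA of HCT116 cells was sequenced, and the authors deposited FPKM per gene for 12 libraries. The study's methods name HTSeq for counting and a PureLink kit, whereas the submitters' processing notes name Trimmomatic 0.36, STAR 2.5.2b, featureCounts of Subread 1.5.2, DESeq2 and GRCh38, and the labels an RNeasy kit. Identifiers matched GENCODE release 29 for all 25733 genes. FPKM times exon length gave whole reads (within 0.05) for 100.0% of values.

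Log2(FPKM + 1), which understates changes of low genes, was fitted for the 12341 genes that averaged 1 FPKM or more, by limma 3.58.1 in R 4.3.3 (4 group means, intensity trend, two-sided), after a test on simulated data. P-values were Benjamini-Hochberg adjusted over all genes tested, with a threshold of 0.05. For the 18 library pairs that share a replicate number, deviations from group means correlated at 0.349 to 0.774, and for 36 other pairs at -0.655 to 0.486. Replicates 1 and 2 correlated at 0.341 to 0.486 with each other and at 0.349 to 0.533 within a number, so mainly replicate 3 (0.702 to 0.774) stood apart. Pairing was therefore read from the data, since labels and paper do not say what a number means; the model with the number as a block is given where it changes a call. Other steps used Python 3.11.15, numpy 2.4.6, pandas 2.3.3 and matplotlib 3.10.9.

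Genes named were the 10 keratins, other keratins averaging 1 FPKM or more, the top KRT8 and KRT18 pseudogenes, in each list the 3 most abundant and the 2 with the largest change, and the 5 genes most like KRT5. A result that this rule covers is not reported here. The members and lists were chosen with earlier results of these data known. Alternatives were other pseudocounts, filters, scalings and models, and libraries left out.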

Additional observations from a re-analysis of the deposited data

How the results depend on the processing

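In both treatments against TGF-β, 127 genes and 1 of the 8 tested keratins passed the threshold. Under the replicate block 2322 genes and 5 keratins passed, and in replicates 1 and 2 alone with the block 1653 genes and 4 keratins. The block on values rescaled to TPM, added after seeing the data, gave 2060 genes and 5 keratins. Without the block, scaling to TPM gave 68 genes, no filter 51 genes and 0 keratins, and a model of only these 2 groups 0 genes and 0 keratins; leaving out single libraries gave 3 to 133 genes and 0 to 1 keratins. The KRT5 difference kept its direction throughout, but without the block its adjusted p was 0.0691 with no filter and 0.268 with only the 2 groups. The cause was not tested. A pseudocount of 0.1, a mean FPKM of at least 5, median centring and no intensity trend kept the call of KRT5.

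Differences that missed the threshold changed sign for KRT8 (0.10 without TGF-β replicate 3, 0.01 without replicate 2 of both treatments), KRT15 (0.10 without TGF-β replicate 3) and KRT18 (0.15 and 0.05 without the same libraries as KRT8, and 0.03 in replicates 1 and 2 with the block). With libraries left out in turn, KRT8 ran from -0.16 to 0.10, KRT15 from -0.29 to 0.10 and KRT18 from -0.18 to 0.15. In TGF-β against control the count was 0 genes, and 1 with the block (also with TPM, ID1, or in replicates 1 and 2 alone, MIR4740); leaving out libraries gave 0 to 1 (SMN1, without control replicate 2). Both treatments against NH4Cl gave 0 genes, and 1 with the block (ID1), a call lost with the block on TPM (0 genes) and with the block in replicates 1 and 2 (0 genes). The interaction gave 0, 1 in replicates 1 and 2 with the block (MIR4740), and 0 to 1 with libraries left out (SMN1, without control replicate 2). No keratin was called in these 3. The block changed no call of a keratin other than those given. Adding pseudogenes moved the share of the 4 abundant keratins from 94.6% to 94.3%. KRT14 and KRT20, with 7 and 66 reads in all, were under the filter and not tested in the main model, so no difference of theirs was excluded.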
